A study of Rattus norvegicus with 10 samples.

Results

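The cytosolic sulfotransferases were examined in the livers of rats given diethylnitrosamine and thioacetamide (DEN/TAA) and of control rats. The set comprised 9 genes (Sult1a1, Sult1b1, Sult1c2, Sult1c3, Sult1e1, Sult2a1, Sult2a6, Sult2b1 and Sult4a1), read by 11 of the 41012 rat probes of the array. They were taken by gene symbol, and are 9 of the 12 Sult genes that have a named probe here. They were proposed with their DEN/TAA minus control differences already known, so those differences are given as a description, without a test.

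The study placed 5 male Wistar rats in each group, and 1 Cy3-labelled Agilent array was hybridised per rat with 150 ng of total liver RNA. Control rats received vehicle only. DEN, a DNA-alkylating carcinogen, was injected intraperitoneally 1 time at 200 mg/kg into treated rats when 6 weeks old. Intraperitoneal thioacetamide, which becomes toxic in hepatocytes and leads to fibrosis, followed 2 weeks afterwards at 200 mg/kg, 2 times a week, with each 3 weeks of dosing followed by 1 week without. The labels give the course as 23 weeks and the age of every rat as 23 weeks, so the duration is not settled here. No cell sorting is described, and the arrays read whole liver.

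Cytosolic sulfotransferases move a sulfonate group from the donor PAPS (3'-phosphoadenosine-5'-phosphosulfate) to hydroxyl or amine groups of hormones, bile acids and drugs. The product is usually more water-soluble and easier to excrete, but sulfation of N-hydroxy arylamines and of benzylic alcohols gives reactive esters that bind DNA. The SULT1 branch mainly takes phenols, oestrogens and thyroid hormones, and the SULT2 branch takes hydroxysteroids and bile acids. In rat liver many of these genes differ between the sexes under the control of growth hormone, the SULT1C and oestrogen forms being male-predominant and the hydroxysteroid forms female-predominant.

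The promoters of the SULT2A genes are shown because those of Sult2a1 and Sult2a6 are nearly identical while the probes of these genes gave different readings. In RefSeq (GRCr8) Sult2a6, Sult2a1 and Sult2a2 lie in 1 cluster on chromosome 1. Each sequence runs 5' to 3' from 250 bases before to 50 bases after the annotated gene start. Capitals mark GGGTCA directly followed by TGAACT, an inverted repeat with no spacer known in SULT2A genes as a nuclear receptor element, and GTTAAT followed by any base and ATT, a core of sites bound by the hepatocyte factor HNF1.
Sult2a1, GRCr8 chr1:84638898-84639197, minus strand: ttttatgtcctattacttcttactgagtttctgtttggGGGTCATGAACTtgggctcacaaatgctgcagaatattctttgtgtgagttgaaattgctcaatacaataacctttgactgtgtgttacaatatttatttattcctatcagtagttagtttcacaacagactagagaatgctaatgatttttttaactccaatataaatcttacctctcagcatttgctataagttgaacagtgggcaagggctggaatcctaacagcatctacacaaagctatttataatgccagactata
Sult2a6, GRCr8 chr1:84097759-84098058, minus strand: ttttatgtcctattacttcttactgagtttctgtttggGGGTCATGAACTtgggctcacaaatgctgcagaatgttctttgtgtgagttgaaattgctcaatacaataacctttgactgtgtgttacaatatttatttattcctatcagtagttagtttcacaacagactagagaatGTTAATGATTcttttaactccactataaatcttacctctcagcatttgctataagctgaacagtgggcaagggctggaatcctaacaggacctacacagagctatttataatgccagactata
Sult2a2, GRCr8 chr1:85104483-85104782, minus strand: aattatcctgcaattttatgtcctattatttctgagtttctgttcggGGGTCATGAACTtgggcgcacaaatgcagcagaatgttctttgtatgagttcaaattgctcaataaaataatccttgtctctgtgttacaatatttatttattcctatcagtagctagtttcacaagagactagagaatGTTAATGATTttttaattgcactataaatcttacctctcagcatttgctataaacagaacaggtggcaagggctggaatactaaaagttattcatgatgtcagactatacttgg

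Aligned base by base, the Sult2a1 and Sult2a6 promoters were identical at 292 of 300 positions (97.3%), and Sult2a2 was identical to Sult2a1 at 254 of 282 aligned bases (90.1%). The inverted repeat was found on the printed strand in all 3, from -212 to -201 relative to the gene start in Sult2a1 and Sult2a6 and from -203 to -192 in Sult2a2. Searched on both strands, it occurred in 8 of 33469 promoters (0.0239%). The exact HNF1 letters occurred in Sult2a6 and Sult2a2 but not in Sult2a1, and in 112 of the 33469 promoters (0.335%). Where Sult2a6 has GTTAATGATT, Sult2a1 has the near match gctaatgatt, which the search for exact letters did not count. AGGTCA, the half-site of many nuclear receptors, occurred among the 15 Sult promoters in Sult1e1 only, where it lay on the opposite strand from -139 to -134, and in 16.2% of all promoters. The motifs overlapped nowhere in these promoters. A match of letters is a description of the sequence and shows no binding.

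The arrays differed in brightness between the groups. On control arrays 16.5% to 32.9% of spots, and on treated arrays 36.1% to 46.6%, were well above background (means 25.5% ± 6.21 and 40.6% ± 4.42, SD, n = 5 each). The 75th percentile of log2 signal, which was subtracted from each array, averaged 10.79 ± 0.69 for control arrays and 12.26 ± 0.36 for treated arrays (SD, n = 5 each). A probe with no signal of its own therefore reads higher in control after scaling. Both groups were present on each of the 3 slides. Replicates 1 and 2 of both groups shared slide 1. Control replicate 3 shared slide 2 with treated replicates 3 and 4, and treated replicate 5 shared slide 3 with control replicates 4 and 5. Of the 10 hepatocyte markers examined (such as Alb, albumin, and Ttr, transthyretin) all were above background on all arrays, as the liver label calls for.

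Values below are log2 processed signals minus the array's percentile, and are comparable only within a probe. Differences are DEN/TAA minus control. Sult1c3, Sult2a1, Sult1e1, Sult1c2 and Sult1a1 were lower in every DEN/TAA liver than in every control liver. Sult1b1 and Sult2a6 overlapped between the groups, Sult2b1 was above background in DEN/TAA only, and Sult4a1 was above background on no array. The plot of values by rat shows the 8 members that at least 5 of the 10 arrays detected.

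**Figure D1:**
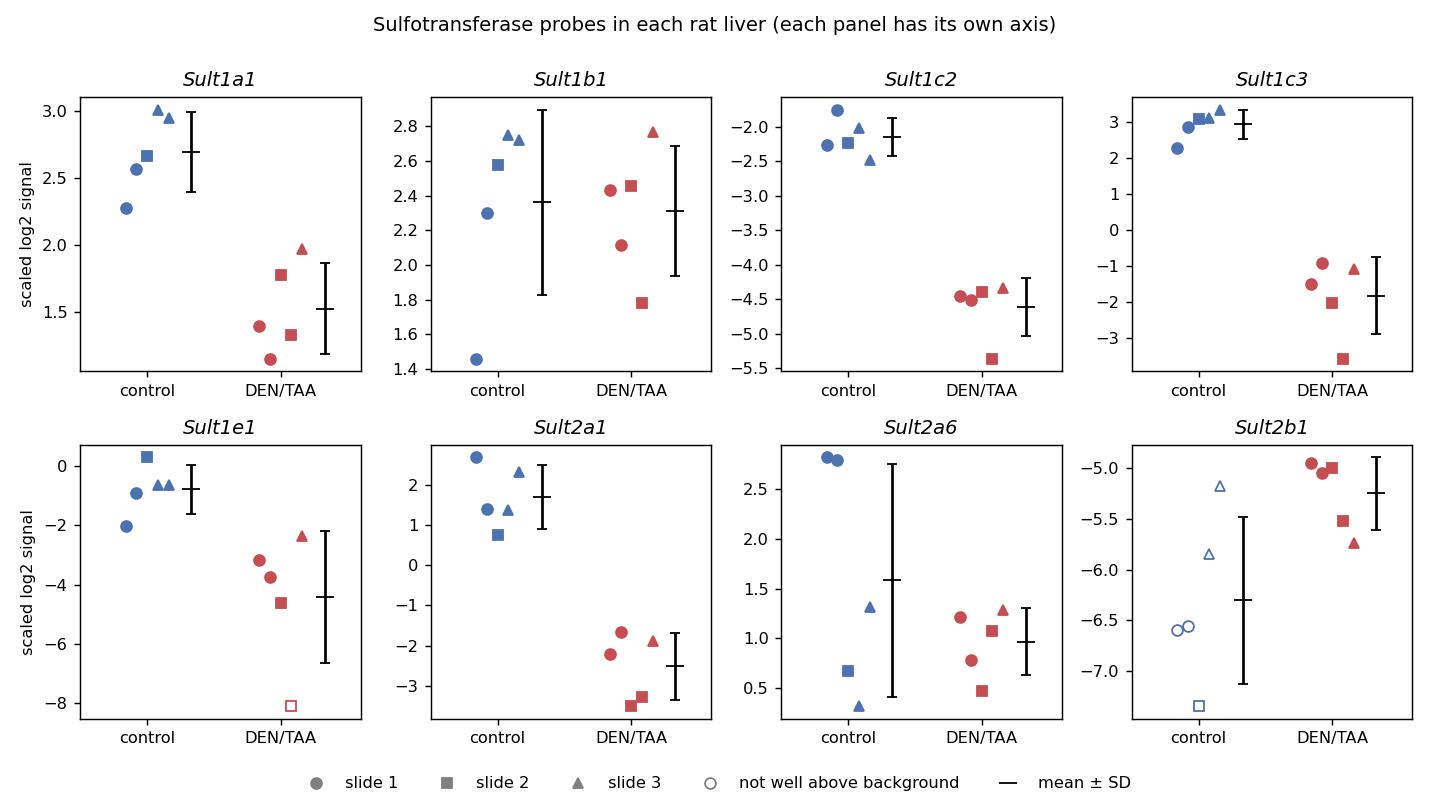
Scaled log2 signal (vertical axis, separate for each panel) of the brightest probe of 8 sulfotransferase genes in 5 control and 5 DEN/TAA rat livers; symbols give the slide, open symbols signal not well above background, and bars the mean ± SD. The groups do not overlap for Sult1a1, Sult1c2, Sult1c3, Sult1e1 and Sult2a1, and the control livers divide for Sult2a6.

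Counted here are the 8 members above background on at least 5 arrays, which leaves out Sult4a1. Of these 8 members 5 were lower without overlap, a state found for 11.4% of the 6855 genes tested. None of the 8 was higher without overlap (28.1% of genes). A log2 difference of -1 or less was found for 5 of the 8 and 9.37% of genes. One of -2 or less was found for 4 of the 8 and 2.99% of genes. These counts rest on the comparison from which the members were proposed. The median log2 difference was 0.33 over all genes. It ranged from -0.28 to 0.99 over 6 scalings of the arrays, and the share of called genes that were higher from 31.2% with normexp to 91.8% with spike-in scaling, against 70.7% here.

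Sult1c3, long known as hydroxyarylamine sulfotransferase of male rat liver, showed the largest difference. Its probe read 2.28, 2.85, 3.10, 3.13 and 3.34 in control replicates 1 to 5 and -1.50, -0.92, -2.02, -3.56 and -1.08 in DEN/TAA replicates 1 to 5. The lowest control liver lay 3.20 above the highest treated liver. The means were 2.94 ± 0.41 and -1.81 ± 1.06 (SD, n = 5 each), a difference of -4.76 (SE 0.51), or 27.0-fold lower in DEN/TAA. Among the 6855 genes it was the 14th from the lowest. The treated livers spread over more than the controls did, from -3.56 in DEN/TAA replicate 4 to -0.92 in DEN/TAA replicate 2.

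Sult2a1 is a hydroxysteroid sulfotransferase that takes dehydroepiandrosterone and bile acids. Its probe read 2.69, 1.39, 0.74, 1.37 and 2.33 in control replicates 1 to 5 and -2.21, -1.65, -3.50, -3.28 and -1.89 in DEN/TAA replicates 1 to 5. Again no liver of one group reached the other, with a gap of 2.39. The means were 1.70 ± 0.79 and -2.51 ± 0.84 (SD, n = 5 each), a difference of -4.21 (SE 0.51), or 18.5-fold lower. Within slides 1, 2 and 3 the difference was -3.97, -4.13 and -3.74, so that all 3 slides gave nearly the same size.

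Sult1e1 is the oestrogen sulfotransferase, which inactivates oestradiol at low concentrations. Its probe read -2.01, -0.92, 0.31, -0.62 and -0.65 in control replicates 1 to 5 and -3.18, -3.75, -4.62, -8.10 and -2.36 in DEN/TAA replicates 1 to 5. The groups stood apart by only 0.35, and the treated livers were unlike each other. In DEN/TAA replicate 4 the signal was not above background, whereas the other 9 arrays were above it. The means were -0.78 ± 0.83 and -4.40 ± 2.22 (SD, n = 5 each), a difference of -3.62 (SE 1.06), or 12.3-fold lower. Raising the undetected array to its floor, that is the lowest detected signal on it, gave -3.36. Without that rat the difference was -2.70, or 6.50-fold lower. Within slide 3, which does not hold it, it was -1.73, against -6.67 on slide 2.

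Sult1c2, a further SULT1C form, lies in 1 cluster with Sult1c3 on chromosome 9, with Sult1c2al1 between them. Its brighter probe read -2.26, -1.75, -2.23, -2.02 and -2.49 in control replicates 1 to 5 and -4.46, -4.51, -4.39, -5.36 and -4.34 in DEN/TAA replicates 1 to 5. Control livers spread little and all treated livers lay at least 1.85 below them. The means were -2.15 ± 0.28 and -4.61 ± 0.42 (SD, n = 5 each), a difference of -2.46 (SE 0.23), or 5.50-fold lower. Its second probe differed by -2.14 (SE 0.41) but was above background on only 3 of 5 control and 1 of 5 DEN/TAA arrays, 1 array short of the filter, and the authors' table put that probe at -0.47.

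Sult1c2a, a relative on the same chromosome that is not a member, was read by 2 probes above background on all 10 arrays. The brighter ranged from -0.51 to 0.40 in control and from -2.97 to -1.96 in DEN/TAA. It fell by 2.38 on the log2 scale (limma SE 0.23, adjusted p = 7.57e-06), and its other probe differed by -2.37. Whether the probes of Sult1c2 and Sult1c2a share signal was not tested.

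Sult1a1, the main phenol sulfotransferase of liver, showed a smaller difference. Its probe read 2.27, 2.57, 2.66, 3.01 and 2.95 in control replicates 1 to 5 and 1.40, 1.15, 1.78, 1.33 and 1.97 in DEN/TAA replicates 1 to 5. The groups were separated by 0.30, about the SD within each. The means were 2.69 ± 0.30 and 1.52 ± 0.34 (SD, n = 5 each), a difference of -1.17 (SE 0.20), or 2.25-fold lower, and the within-slide values were -1.15, -1.11 and -1.01. All 5 of these genes were lower under each of the 6 scalings, but with spike-in scaling the groups overlapped for Sult1a1 (-0.51) and Sult1e1 (-2.97). Sult1e1 also shrank to -2.10 and Sult1c2 to -1.32 in the authors' table, which ranks spots as the raw signal does.

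**Figure D2:**
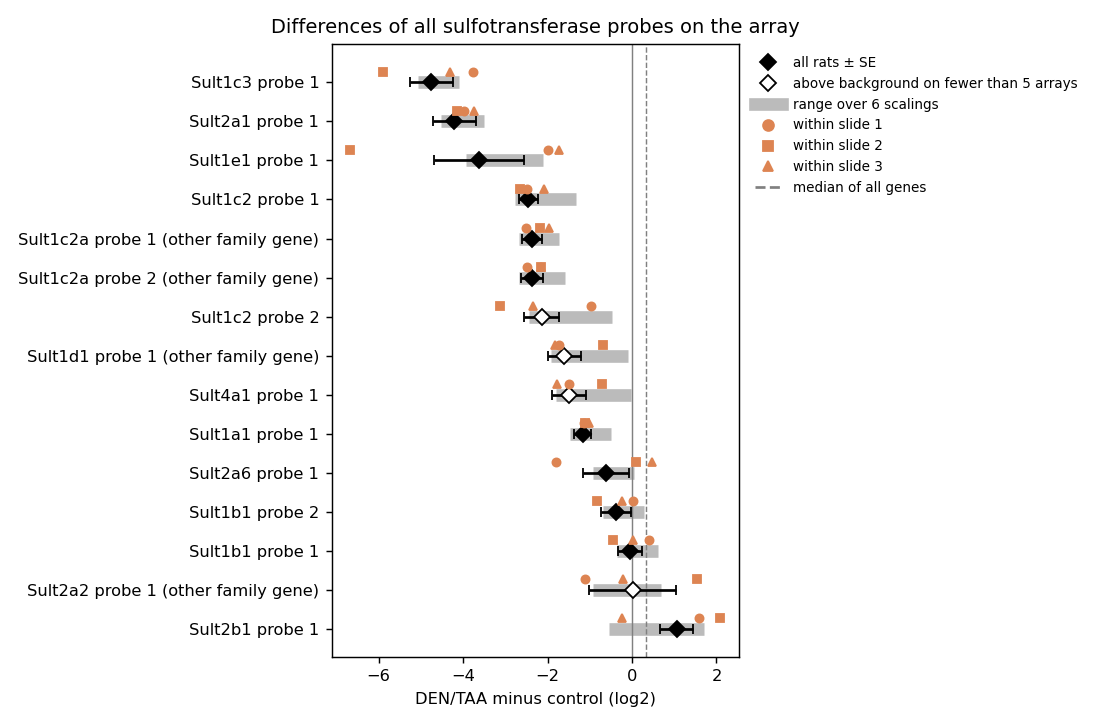
DEN/TAA minus control log2 differences (horizontal axis) of all 15 Sult probes; diamonds are all rats ± SE, open where fewer than 5 arrays were above background, grey bars the range over 6 scalings and orange symbols the 3 within-slide values. The bars of Sult1c3, Sult2a1, Sult1e1, Sult1c2 and Sult1a1 stay below 0, while those of Sult1b1, Sult2a6 and Sult2b1 cross it. Those of Sult4a1 and Sult1d1, above background on no array, also stay below 0, so a bar below 0 does not by itself show a fall.

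Sult1b1, which sulfates thyroid hormones and small phenols, lies in 1 cluster on chromosome 14 with Sult1e1, with Sult1d1 between them. Its brighter probe read 1.46, 2.30, 2.58, 2.75 and 2.72 in control replicates 1 to 5 and 2.43, 2.12, 2.46, 1.78 and 2.77 in DEN/TAA replicates 1 to 5. The groups overlapped almost entirely, control replicate 1 being the lowest of all 10 livers. The difference was -0.05 (SE 0.29), its sign turned between slides (0.40, -0.46 and 0.03), and over the scalings it ran from -0.36 to 0.61. Its second probe gave -0.37 (SE 0.36). Thus of these neighbours Sult1e1 was lower without overlap and Sult1b1 was not, while Sult1d1 was above background on no array.

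Sult2a6, a further hydroxysteroid form, did not follow Sult2a1. Its probe read 2.82, 2.79, 0.68, 0.32 and 1.32 in control replicates 1 to 5 and 1.22, 0.78, 0.47, 1.07 and 1.29 in DEN/TAA replicates 1 to 5. Control replicates 1 and 2, both on slide 1, lay above all other livers, and the other 3 controls, at 0.32 to 1.32, covered nearly the same range as the treated livers, at 0.47 to 1.29. The difference was -0.62 (SE 0.54). It was -1.80 within slide 1, 0.10 within slide 2 and 0.47 within slide 3, so the direction was that of slide 1 alone, and it was 0.041 with spike-in scaling. Sult2a2, which is not a member, was above background on 2 arrays of each group, in control again replicates 1 and 2, and differed by 0.02 (SE 1.03).

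Log2 ratios of 2 probes on the same array do not change when a constant is subtracted from the array, as the percentile and spike-in scalings do, and only their change between groups can be read. Normexp, quantile normalisation and the authors' table do alter them. The Sult2a1 over Sult2a6 log2 ratio ranged from -1.40 to 1.04 in control and from -4.36 to -2.43 in DEN/TAA, a change of -3.59 (SE 0.56) without overlap, and of -2.98 in the authors' table. It changed by -2.16, -4.23 and -4.20 within slides 1, 2 and 3, so the probes of the pair changed unequally on every slide. How far either probe also binds the other's transcript was not tested. The Sult1c3 over Sult1b1 ratio lay between 0.38 and 0.83 in all controls and between -5.34 and -3.03 in DEN/TAA. That ratio changed by -4.70 (SE 0.39), and its control SD of 0.16 was smaller than that of either probe alone. The Sult1e1 over Sult1b1 ratio lay between -3.47 and -2.27 in control and between -7.08 and -5.13 in the 4 DEN/TAA livers where Sult1e1 was above background. It changed by -2.78 over these livers, by -3.57 (SE 0.88) with DEN/TAA replicate 4, whose Sult1e1 signal was undetected, and by -2.30 in the authors' table with all rats. The groups did not overlap for any of the 3 ratios under the 6 scalings, of which the percentile and spike-in scalings give equal ratios. Leaving out 1 rat cannot make separate groups overlap, so only the size of the change can be read from it. That size ran from -3.97 to -3.36 for Sult2a1 over Sult2a6. It ran from -4.98 to -4.40 for Sult1c3 over Sult1b1 and from -3.97 to -2.78 for Sult1e1 over Sult1b1. These settings were added after the data were seen.

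**Figure D3:**
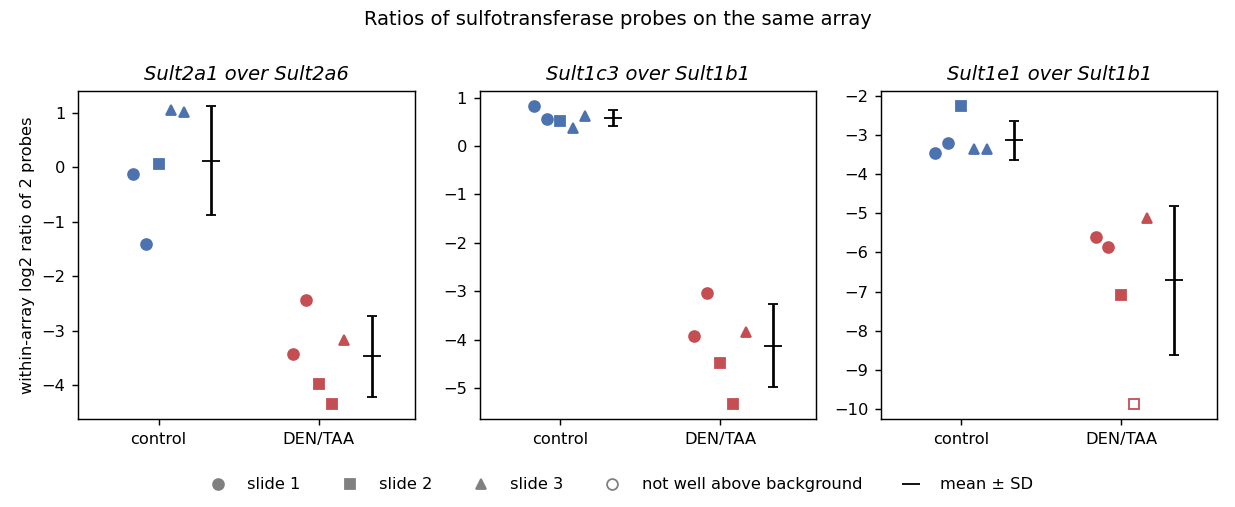
Within-array log2 ratio of 2 probes (vertical axis) in 5 control and 5 DEN/TAA livers, with symbols for the slide, an open symbol where the first probe was not well above background, and bars for the mean ± SD. All DEN/TAA ratios lie below all control ratios in the 3 panels, by 1.03 for Sult2a1 over Sult2a6 and by 3.41 for Sult1c3 over Sult1b1.

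Sult2b1, the cholesterol sulfotransferase of skin and other epithelia, was detected above background in 5 of 5 DEN/TAA livers and 0 of 5 control livers, and so passed the filter through the treated group alone. Its probe read -6.59, -6.55, -7.34, -5.85 and -5.17 in control replicates 1 to 5 and -4.95, -5.04, -5.00, -5.52 and -5.74 in DEN/TAA replicates 1 to 5. The measured difference was 1.05 (SE 0.40), but control replicate 5, the dimmest array, lay among the treated values. With undetected control arrays raised to their floor the difference was -0.25, so no fold is given. It was -0.55 with normexp, which turned the direction.

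Sult4a1, a brain form with no settled substrate, was undetected in all 10 livers. Its readings ran from -7.80 to -5.68 in control and from -8.81 to -7.97 in DEN/TAA. Sult1d1, likewise undetected, read -7.91 to -5.73 and -8.95 to -8.10. The groups are apart by 0.16 and 0.19 although neither probe carried signal, and in the authors' table the differences were -0.028 and -0.091. No level or fold was read from the measured differences of -1.49 and -1.61.

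DEN/TAA replicate 4 was often the lowest treated liver. Of the 7 Sult probes that were lower without overlap and above background on at least 5 arrays, 5 had their lowest treated value in DEN/TAA replicate 4, and 4 had their highest in DEN/TAA replicate 5. Across the 1116 genes called lower, DEN/TAA replicate 4 was also the lowest treated liver most often, for 39.2%, and DEN/TAA replicate 5 the highest for 50.8%. The probes share arrays and 4 of them read SULT1C relatives, so they are not independent readings.

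In the same livers markers of several cell types moved, where 16.3% of all genes were called lower and 39.2% higher. The mean level of the 10 hepatocyte markers ranged from 5.21 to 5.76 in control and from 4.37 to 4.71 in DEN/TAA, 9 of the 10 falling, Alb by 0.92 and Ttr by 2.03 on the log2 scale (limma adjusted p = 0.00937 and 1.79e-05). Marker values are given for the main scaling only. With spike-in scaling, where the median of all genes was 0.99 instead of 0.33, these falls would be smaller. Of the 4 measured biliary markers Krt19, Spp1 and Cldn4 were above background on 5 of 5 DEN/TAA and 0 of 5 control arrays, and so were measured through the treated group alone; Epcam, detected on 4 of 5 control arrays, rose. The mean biliary reading was -6.14 to -5.13 in control, mostly below background, and -3.14 to -2.14 in DEN/TAA. Of the macrophage markers 9 of 10 rose (-3.50 to -2.21 in control, -0.87 to -0.24 in DEN/TAA), of which Cd163, Gpnmb and Trem2 were above background on 0 of 5 control arrays. So did 6 of 8 stellate and fibroblast markers (-3.83 to -3.38 and -1.96 to -1.33). Of the endothelial markers 3 of 4 rose (-3.20 to -2.71 in control, -2.02 to -1.68 in DEN/TAA). Of the 4 measured lymphocyte markers Cd3g, Zap70 and Nkg7 were likewise above background on 5 of 5 DEN/TAA and 0 of 5 control arrays. Cd3d, detected on 2 of 5 control arrays, overlapped between the groups and was not called (0.58, limma adjusted p = 0.0711). The mean reading of the list was -6.70 to -5.13 in control and -4.52 to -4.12 in DEN/TAA. Fewer hepatocytes and less RNA per hepatocyte cannot be told apart in whole liver. The part of these shifts in the sulfotransferase differences was not tested.

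Genes that supply the sulfonate were taken from lists chosen by function and tested with limma over all 6855 genes. Of 11 genes of PAPS supply and recycling 5 were measured, of which 1 fell and 0 rose. Of all genes 16.3% fell and 39.2% rose. The list's median difference was 0.29 against 0.33 for all genes. The number in this list that fell was 2 under 4 other scalings, with array weights and without the 2 dimmest control arrays. It was 3 without a filter. The number that rose was 3 with spike-in scaling, 2 without DEN/TAA replicate 5, and 1 with averaged probes, array weights, a slide or replicate block, or without control replicate 3. The gene that fell was Slc26a1, the sulfate carrier of the hepatocyte membrane. Its probe read 1.41, 1.78, 1.90, 1.74 and 1.59 in control replicates 1 to 5 and 0.06, 0.18, 0.12, 0.14 and 0.65 in DEN/TAA replicates 1 to 5. It fell by 1.45 (limma SE 0.16, adjusted p = 2.3e-05) without overlap between the groups. Papss2, which makes PAPS, differed by -0.28 (SE 0.15, adjusted p = 0.146). Its adjusted p was below 0.05 under 4 of the 5 other scalings (differences of -0.58 to -0.43, adjusted p from 0.00185 to 0.0199), but its sign turned to 0.38 with spike-in scaling. Bpnt1, which removes the spent cofactor, differed by 0.73 (SE 0.39, adjusted p = 0.132) and by 1.02 without DEN/TAA replicate 5 (adjusted p = 0.0246). It also passed with the slide as a block (0.45, adjusted p = 0.0416), the replicate number as a block (adjusted p = 0.0431), array weights (adjusted p = 0.0274) and spike-in scaling (1.39, adjusted p = 0.0091). Papss1, the other PAPS synthase, had no named probe here.

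Enzymes of sulfur amino acid breakdown and sulfur oxidation, not all of which lead to sulfate, mostly fell. Of 10 measured of 11 listed, 9 fell and 0 rose, with a median of -1.53, where 16.3% of all genes fell. Cbs, which starts transsulfuration of homocysteine, fell by 3.77 (limma SE 0.29, adjusted p = 1.77e-06). Cdo1, the dioxygenase that commits cysteine to oxidation, fell by 2.98 (SE 0.27, adjusted p = 5.27e-06). Suox, sulfite oxidase, which makes the sulfate itself, fell by 1.83 (SE 0.20, adjusted p = 2.34e-05). For all 3 the groups did not overlap. The count of lower genes in this list was 5 with spike-in scaling and 8 or 9 when any 1 rat was left out.

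Golgi sulfotransferases, which sulfate proteoglycans and protein tyrosines, and sulfatases, which remove sulfate, showed smaller differences. Of 35 listed Golgi enzymes 6 were measured, 3 falling and 1 rising, with a median of -0.64. Of all genes 16.3% fell and 39.2% rose. Ndst2 and Tpst1 fell by 0.90 and 0.75 without overlap (limma adjusted p = 0.00126 and 0.00128), and Hs2st1, which sulfates heparan chains, rose by 0.67 (adjusted p = 0.0025). Tpst2 fell by 0.64 (adjusted p = 0.0242), a call lost without control replicate 1, 2 or 3 or DEN/TAA replicate 2 (adjusted p from 0.0514 to 0.0589). With spike-in scaling no Golgi enzyme was lower, and with the percentile over all probes or normexp none was higher. Of 14 sulfatases and their activators 5 were measured, with a median of -0.05. Arsa fell by 0.73 (limma adjusted p = 0.00491), though it did not pass with spike-in scaling, and 0 of the 5 rose, against 3 with spike-in scaling and 1 without control replicate 1 or 4. Sts, the sulfatase that frees steroids from their sulfates, differed by 0.09 (SE 0.24, adjusted p = 0.763), and was called higher with spike-in scaling (0.75, adjusted p = 0.0231).

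Of 20 listed regulators of sulfotransferase genes 15 were measured, 7 falling and 2 rising, with a median of -0.65, where 16.3% of all genes fell and 39.2% rose. With spike-in scaling 2 fell and 3 rose, so the balance between the directions turned. Foxa1, a pioneer factor of liver genes, fell by 2.25 (limma adjusted p = 1.59e-04), Nr1h4, the bile acid receptor FXR, by 1.17 (adjusted p = 4.86e-04) and Cebpa by 1.75 (adjusted p = 4.88e-04). Hnf4a fell by 0.99 (adjusted p = 7.48e-04) and Nr1i2, the xenobiotic receptor PXR, by 1.02 (adjusted p = 0.00288). With spike-in scaling Hnf4a, Nr1i2 and Nr1h4 no longer passed (-0.33, -0.36 and -0.51). Nr1i3, the receptor CAR, differed by -0.16 (SE 0.56, adjusted p = 0.824), but was called lower with normexp (-0.89, adjusted p = 0.0266) and without the 2 dimmest control arrays (-1.07, adjusted p = 0.0386). Nr2f1, the orphan receptor COUP-TFI, rose by 1.35 (adjusted p = 0.00508), above background on 2 of 5 control arrays, and not with normexp (0.16). Esrra rose by 0.78 (adjusted p = 0.00903), and not with the percentile over all probes (0.47, adjusted p = 0.12).

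**Figure D4:**
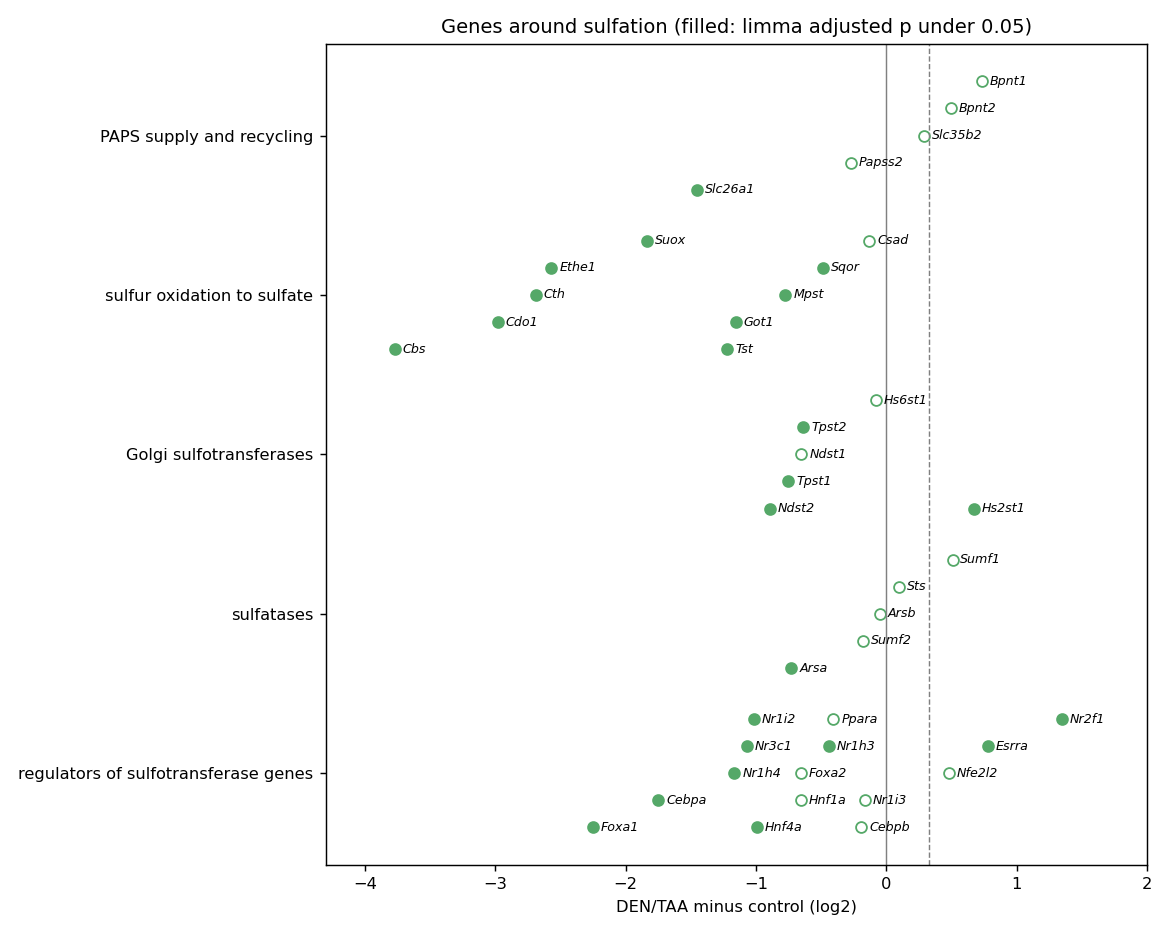
DEN/TAA minus control log2 differences (horizontal axis) of measured genes in 5 lists around sulfation; filled circles passed limma at an adjusted p under 0.05, and the dashed line is the median of all genes at 0.33. Of the sulfur oxidation genes 9 of 10 are filled and lower, and Slc26a1 is the filled gene among those of PAPS supply.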

How the data were processed

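Liver RNA of 10 rats was read on 1-colour Agilent arrays. The deposited scanner files hold spot intensity, background-subtracted within the array but not scaled between arrays, which the file headers credit to Feature Extraction 11.5.1.1 (the submitters' processing notes name 15.5). A second deposited table holds the authors' log2 values. Its ranks within each array equalled those of the raw median signal (Spearman's rho of 1), and its column medians were 8.593 to 8.594, as after quantile normalisation without background subtraction. No source used here describes its making, and it served as an alternative.

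Control and outlier spots were left out, log2 processed signals of a probe's spots averaged, and each array's 75th percentile over the 6229 probes well above background on all arrays subtracted. No spot was saturated. Accessions were matched without versions to RefSeq genes (GRCr8): of 41012 probes 17502 had 1 symbol, 0 several and 23510 none. A probe was tested when well above background on at least 5 arrays, and a gene was its brightest passing probe. Differences of non-members were fitted with limma (3.58.1, R 4.3.3) (two-sided, Benjamini-Hochberg over 6855 genes, threshold 0.05, no covariates; checked on simulated data). The labels call the samples replicates, and each was taken as 1 rat. Where a spot was left out on 1 array, limma fitted the gene on the others; no Sult probe was affected. Member differences carry the SE of the difference of 2 means with a pooled SD.

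Members and gene lists were chosen with earlier results of these data known. Named besides the family were the called genes with the smallest adjusted p, up to 3 per direction, of 5 lists around sulfation, and 8 fixed genes. The other lists were counted, and single genes in them were named as examples or for their detection. Alternatives were 5 other scalings, 2 other filters, averaged probes, blocks for slide or for replicate number, array weights, a prior that was trended and robust, and leaving out each rat. Leaving out the 2 dimmest control arrays was added after the data were seen. Array number limits the precision. Probe and protein sequences were not used here, and 1 listed gene is not reported here.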

Additional observations from a re-analysis of the deposited data

Results flagged for a closer look

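In 6 of the 70 groups of 5 rats examined for the sulfotransferase probes and the named genes, 1 rat stood apart from the rest by Dixon's criterion (a gap over 0.71 of the group's range), which chance gives in about 1 in 20 groups. Sult1c2 was -5.36 in DEN/TAA replicate 4, and the next lowest treated liver was -4.51. Bpnt1 was -2.41 in DEN/TAA replicate 5 against -1.19 for the next lowest. Slc26a1 was 0.65 in DEN/TAA replicate 5 against 0.18 for the next highest. Cbs was 1.59 in control replicate 1 against 0.97 for the next highest. Sts was -0.41 in control replicate 1 against 0.57 for the next lowest. Cebpa was -5.00 in control replicate 5, the dimmest array, against -3.72 for the next lowest. The -5.00 reading was not above background, lying under the lowest detected signal on that array (-3.75).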

How the results depend on the processing

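Over 6 scalings the 5 lower members kept their direction, and the number lower without overlap was 5 except with spike-in scaling, where it was 3. The number higher without overlap was 0, but 1 (Sult2b1) with spike-in scaling and without the 2 dimmest control arrays, and 0 to 1 when single rats were left out (1 without control replicate 5). Leaving out single rats gave 2344 to 2690 higher genes and 988 to 1143 lower genes. The number of lower members stayed 5, but it could not fall, because leaving out a rat cannot make separate groups overlap. Over all genes 2689 were higher and 1116 lower. The higher genes numbered 1617 with the percentile over all probes, 883 with normexp, 4443 with spike-in scaling and 1154 with a filter on all 10 arrays. The lower genes numbered 1950 with normexp, 396 on the spike-in scale and 5801 unfiltered, where 13832 genes were tested. Among named genes Tpst2 turned to 0.022 with spike-in scaling. A replicate block gave 2685 higher and 1121 lower genes. Same-numbered rats showed correlations of deviations from -0.22 to 0.20. Different-numbered rats were not compared, so these values cannot settle whether the numbers pair the rats. Of 476 alternative fits of the 21 tested genes 447 kept direction and side of the threshold. The cause of the changes was not tested. Signal near background limits Sult2b1, Sult4a1, Sult1d1, Sult2a2 and the second Sult1c2 probe.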

Other observations

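Genes known to differ between the sexes in rat liver were listed beside the family. Of 9 male-predominant genes 9 fell and 0 rose, with a median log2 difference of -6.67, and of 5 measured female-predominant genes 3 fell and 1 (Cyp2c12) rose, with a median of -2.10 (limma, adjusted p under 0.05, which called 16.3% of all genes lower and 39.2% higher). Stac3 was above background on 5 of 5 control and 0 of 5 DEN/TAA arrays, and so was measured through the control group alone. Obp3 was above background on 3 of 5 and Mup4 on 4 of 5 DEN/TAA arrays, and Cyp2c12 on 2 of 5 control arrays. The male-predominant and female-predominant lists, like the others, were written with earlier results of these data known.

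Over the 10 arrays the genes whose signal ran most like that of Sult1c3 were Igf1 (Pearson r = 0.992), Nlrp12 (0.991) and Ahsg (0.991). For deviations from the group means, r was 0.908, 0.894 and 0.891. The genes most like Sult2b1 were Panx2 (0.961), Pltp (0.952) and Nt5c3b (0.944), though Sult2b1 was not above background on any control array. The points share arrays and the difference between groups, and these values are descriptions chosen as the highest of all genes tested.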
